A study of Mus musculus with 2 samples.

Results

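The 36 genes described here encode proteins that carry a cell through the G2 phase and mitosis. They were chosen by gene symbol from a list drawn up with earlier results of these data known, and each symbol matched 1 of the 32285 annotated genes. The cells came from subcutaneous MC38 tumors, grown from a mouse colon adenocarcinoma cell line in C57BL/6 mice 6 to 8 weeks of age, and were counted by droplet-based 3′ single-cell RNA sequencing. The untreated library came from tumors injected with the vehicle, saline with 10% DMSO, and the MSA-2 library from tumors injected with MSA-2, a small-molecule agonist of the innate DNA-sensing adaptor STING. Both received 3 intratumoral injections at intervals of 3 days and were collected on day 7. Each library pooled the tumors of 3 mice, so that there was 1 library per condition, no spread between animals could be computed, and a difference between mice, pools or libraries cannot be told apart from a difference between treatments. The untreated library held 198135335 unique molecular identifiers (UMIs, 1 per captured transcript) in 14386 barcodes and the MSA-2 library 204387165 in 14617. After filters on cells and removal of called doublets, 13334 and 13393 cells were kept. The intervals given below are 95% intervals and cover counting error only.

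Cells in G2 build up cyclins A and B, which bind the kinase CDK1 and start mitosis once that kinase is active, while the small subunit Cks2 docks on CDK1 and helps it reach phosphorylated substrates. The chromosomes then condense, the kinetochores on their centromeres attach to spindle microtubules under the control of checkpoint and Aurora kinases, and the anaphase-promoting complex, a ubiquitin ligase, ends mitosis by marking the cyclins for destruction before the cell divides by cytokinesis. Transcripts of these genes are high from G2 to mitosis and low in resting cells, because a repressor complex holds them down through short promoter elements; mature neutrophils have left the cycle for good, while tumor cells and activated lymphocytes divide often.

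The promoters of the members share letters. In the RefSeq promoter table of build GRCm38.p6, 32 of the 36 genes had an entry, with 34 windows, and the 150 bases just before each start were searched on both strands for CCAAT, the box bound by the factor NF-Y, and for TTTGAA, the core of the cell cycle homology region that the repressor complex reads. CCAAT stood in 25 of the 34 windows (73.5%), against 24.5% of all 32851 windows of that length. At least 2 copies stood in 19 windows (55.9%), against 6.02% of all. The distance between the starts of 2 copies was 31 to 34 bases in 8 windows (23.5%), a spacing chosen after the windows had been seen, against 0.868% of all. TTTGAA stood in 9 windows (26.5%), against 9.07% of all, and both motifs in 8 (23.5%), against 2.24%; 2 of these 8 are overlapping windows of Ect2. Of the 27 windows of 24 genes of DNA replication and S phase, 16 (59.3%) held CCAAT, 8 (29.6%) at least 2 copies, 2 (7.41%) TTTGAA and 0 both motifs, with an upper limit of 3 windows. Of the 50 windows of 43 other mitosis genes, 28 (56%) held CCAAT, 11 (22%) at least 2 copies, 17 (34%) TTTGAA and 14 (28%) both, a larger share than of the members. The spacing of 31 to 34 bases stood in 0 and 1 (2%) of these windows. A match is a description of letters, not of a bound site. The windows of the 3 most abundant members of the tumor cells are shown first: Cks2 on the plus strand at chr13:51645082-51645231, Ube2c on the plus strand at chr2:164769779-164769928 and Top2a on the minus strand at chr11:99024190-99024339. Cdk1 on the minus strand at chr10:69352913-69353062 and Cdc20 on the minus strand at chr4:118437344-118437493 hold both motifs, and Hmmr on the minus strand at chr11:40733438-40733587 holds 4 CCAAT boxes; these 3 were picked after the search. Capitals mark either motif on either strand.
Cks2: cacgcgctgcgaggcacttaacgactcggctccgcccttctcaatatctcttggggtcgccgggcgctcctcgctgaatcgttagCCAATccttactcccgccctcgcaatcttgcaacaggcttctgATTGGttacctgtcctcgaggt
Ube2c: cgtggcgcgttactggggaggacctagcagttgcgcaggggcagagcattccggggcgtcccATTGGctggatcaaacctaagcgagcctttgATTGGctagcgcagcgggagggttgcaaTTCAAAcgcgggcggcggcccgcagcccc
Top2a: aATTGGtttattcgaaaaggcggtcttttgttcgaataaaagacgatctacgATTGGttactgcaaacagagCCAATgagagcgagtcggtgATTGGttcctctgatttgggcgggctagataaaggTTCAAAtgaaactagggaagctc
Cdk1: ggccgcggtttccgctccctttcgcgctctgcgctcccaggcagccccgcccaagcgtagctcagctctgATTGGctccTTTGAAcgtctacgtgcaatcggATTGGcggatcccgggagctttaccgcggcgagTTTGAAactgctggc
Cdc20: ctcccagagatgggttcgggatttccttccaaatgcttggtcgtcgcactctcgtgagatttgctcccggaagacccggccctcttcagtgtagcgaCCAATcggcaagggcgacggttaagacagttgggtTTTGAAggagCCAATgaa
Hmmr: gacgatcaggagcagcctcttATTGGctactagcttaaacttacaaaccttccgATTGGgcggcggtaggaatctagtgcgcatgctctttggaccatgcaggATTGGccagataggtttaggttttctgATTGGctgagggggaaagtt
By the same build, the 36 genes lay on 15 chromosomes, with at most 6 on 1 of them, chromosome 2, and the closest pair, Bub1b and Nusap1, lay 977 kb apart.

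Cells were assigned to types by marker genes, since no cell annotation was used. The tumor gate held 4990 untreated and 5334 MSA-2 cells, the T cell gate 1156 and 141, the NK cell gate 137 and 69, the macrophage gate 3404 and 966, and the fibroblast gate 120 and 477. The neutrophil gate, which served as a background of cells outside the cycle, held 20 and 2314 cells. The tumor gate was set by 8 markers, so their level there is no check of the label: Gng11 led with 1748 counts per 1000000 UMIs (CPM) in the untreated library and 2711 with MSA-2, followed by Ccn1 (892 and 388) and Cdkn2a (66.8 and 110.1). The epithelial markers Krt8, Krt18, Krt7, Epcam and Perp, which define a carcinoma cell, were near 0, the highest at 0.778 CPM (Krt7, untreated), so the gate rests on the other 3 genes. The fibroblast list stood nearly as high in the tumor gate as the 8 tumor markers, at 2285 and 3077 CPM against 2708 and 3210, with Col3a1 at 1507 and 946 and Dcn at 556 and 1887. In the fibroblast gate Col3a1 was at 16149 and 9995 and Dcn at 3347 and 3985. The paper describes the cells as sorted, with no marker named, and as immune cells, while tumor cells were the largest gate of both libraries. How a sort shaped the gate sizes was not tested. Cells in no gate numbered 3161 and 3754. Their summed level of 5 tumor panel genes that were chosen after the data had been seen (Rhox5, Tafa1, Shisal2b, Hmga2 and Rorb) was 1575 and 1353 CPM, beside 1536 and 1833 in the tumor gate. Most member UMIs lay in the tumor gate and in ungated cells, as did most UMIs of all genes. Of 410728 member UMIs of the untreated library, 52.7% lay in the tumor gate and 38.8% in ungated cells. Of 455495 in the MSA-2 library, the shares were 63.1% and 32.8%. Of all 183355500 UMIs of untreated kept cells, 98938561 lay in the tumor gate and 54478618 in ungated cells. Of 191888910 with MSA-2, the numbers were 115573306 and 55603432.

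In tumor cells the 36 genes were summed to 2187 CPM (2178 to 2196) in the untreated library and 2486 (2477 to 2495) with MSA-2, a log2 ratio of MSA-2 over untreated of 0.18 (0.18 to 0.19). This difference was small, and it depended on which cells were counted: in ungated cells the sums were 2925 and 2685 (log2 ratio -0.12), and with the 3-of-5 panel cells added to the tumor gate, 6632 and 7143 cells in all, they were 2507 and 2615 (log2 ratio 0.06, 0.05 to 0.07). In T cells the sum was 2059 (2017 to 2101) in the untreated library and 3473 (3338 to 3613) with MSA-2, a log2 ratio of 0.75 (0.69 to 0.82). NK cells stood at 1609 (1523 to 1699) and 1981 (1858 to 2110), a log2 ratio of 0.30 (0.18 to 0.42). In macrophages the order was the reverse, with 987 (974 to 1001) and 652 (630.5 to 675) and a log2 ratio of -0.60 (-0.65 to -0.55). Fibroblasts also had the higher sum in the untreated library, 1165 (1111 to 1221) against 835 (813 to 856), a log2 ratio of -0.48 (-0.56 to -0.40). The fibroblast direction turned when every cell with a UMI of the 10 tumor tracers was left out: the 32 and 158 fibroblasts that remained were at 509.8 and 712 CPM (log2 ratio 0.48, 0.23 to 0.74). The tracers summed to 236 CPM in MSA-2 fibroblasts against 199 in tumor cells. Mdk was at 38.8 CPM in untreated fibroblasts against 0.425 in tumor cells. Leaving out these cells therefore does not select on free RNA of tumor cells alone. These intervals are over molecules of 1 library each; over cells, the NK cell and fibroblast shares given below had intervals that overlapped. In the MSA-2 library T cells had the highest sum of the 5 gates, above the tumor cells, whereas in the untreated library they stood just below them.

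**Figure D1:**
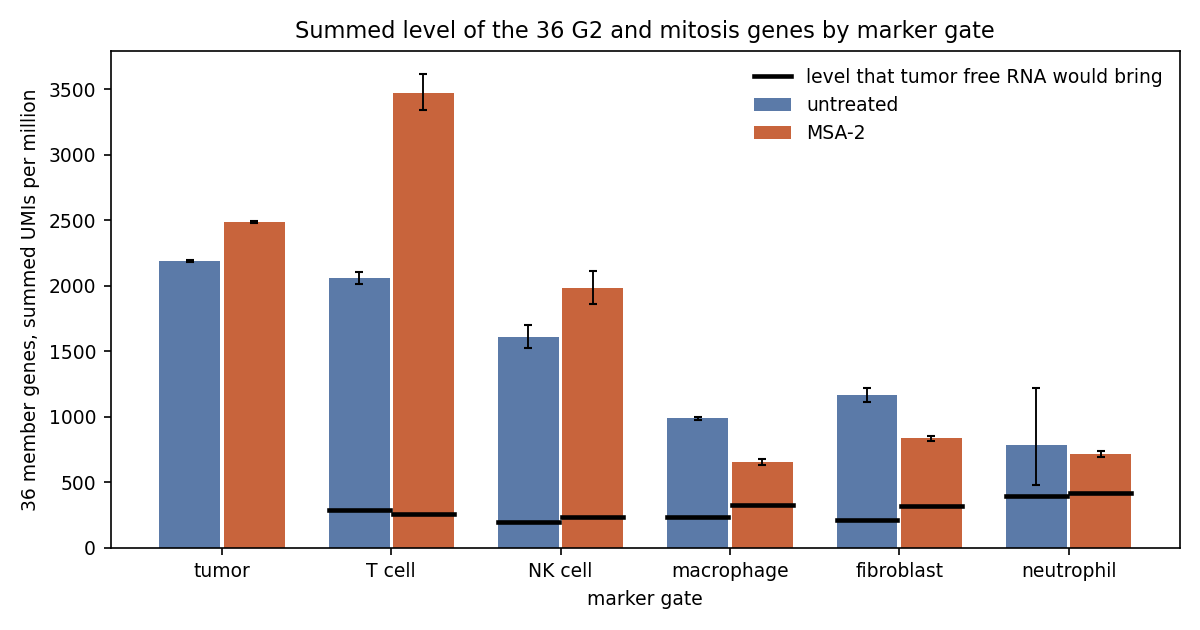
Summed CPM of the 36 member genes (vertical axis) in each marker gate (horizontal axis) for the untreated (blue) and MSA-2 (orange) library, with exact Poisson 95% intervals and, as black lines, the level that free RNA of tumor cells would bring by the 5 panel genes. T cells go from 2059 to 3473 and macrophages from 987 to 652, and all bars stand above their black line.

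Free RNA of lysed cells enters every droplet, and its size was read from genes of the tumor cells. By the 10 tracers of the first list, free RNA would bring 86.8% of the member sum in untreated and 56.9% in MSA-2 T cells, 25.0% and 27.3% in NK cells, 70.8% and 234% in macrophages and 139% and 354% in fibroblasts. By that list 21 and 32 of the 36 members stood above the expected level in T cells, 33 and 0 in macrophages and 7 and 0 in fibroblasts. Some of these tracers were higher outside the tumor gate: Areg was at 137 CPM in untreated T cells against 26.4 in tumor cells. A panel of 5 genes was therefore chosen after the data had been seen, and the black lines of the figure and the values that follow rest on it. The 5 panel genes lay in T cells at 13.1% and 10.45% of their level in the tumor gate of the same library, in NK cells at 8.91% and 9.32%, in macrophages at 10.7% and 12.996%, in fibroblasts at 9.71% and 12.97%, and in MSA-2 neutrophils at 16.8%. The same percentage of the tumor cells' member sum was taken as the level that free RNA would bring, although the single panel genes differed, from 8.87% to 15.4% in untreated T cells, from 9.63% to 16.2% in MSA-2 macrophages and from 10.02% to 18.3% in MSA-2 fibroblasts. For T cells that was 286 of 2059 CPM in the untreated library and 259.9 of 3473 with MSA-2, or 13.9% and 7.48%. For macrophages it was 233 of 987 and 323 of 652, or 23.6% and 49.5%, and for fibroblasts 212 of 1165 and 322 of 835, or 18.2% and 38.6%. Over the single panel genes that share ran from 36.7% to 61.6% in MSA-2 macrophages and from 29.8% to 54.5% in MSA-2 fibroblasts. The panel genes were at 164 and 238 CPM in macrophages and at 149 and 238 in fibroblasts; what free RNA did to the member ratios was not tested. All 36 members were above the expected level in T cells and fibroblasts of both libraries and in untreated macrophages, and 35 in MSA-2 macrophages. In NK cells 35 and 36 were above it, and free RNA would bring 12.1% and 11.7% of the member sum. In MSA-2 neutrophils 28 members were above it, with a sum of 717 against 418 expected. A level above this line therefore does not set a gate apart from background. How many of all genes lay above the line is not given, by either list.

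**Figure D2:**
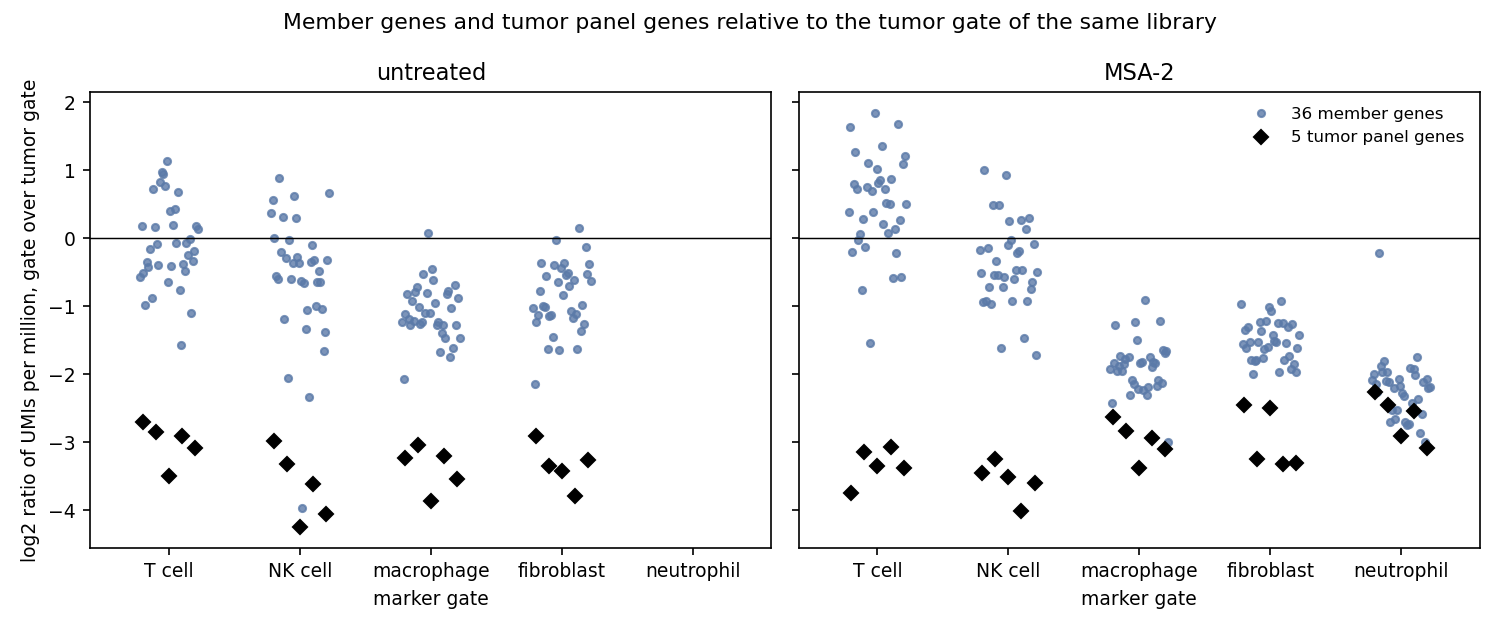
Log2 ratio of CPM in each gate over the tumor gate of the same library (vertical axis) for the 36 member genes (blue circles) and the 5 tumor panel genes (black diamonds), untreated at left and MSA-2 at right; members without a UMI have no point, and untreated neutrophils (20 cells) are left out. The panel genes lie low in every gate, while the members of T cells have a median of -0.12 untreated and 0.51 with MSA-2, and those of MSA-2 neutrophils a median of -2.18.

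The neutrophil gate of the MSA-2 library gave a background from whole cells, at a median of 1834.5 UMIs a cell against 18370.5 in tumor cells, 4027 in T cells and 4979.5 in macrophages. Its member sum was 717 CPM (693 to 742), above the sum in MSA-2 macrophages. Cks2 stood apart there: it was at 227 CPM, 86.1% of its level in MSA-2 tumor cells, a log2 ratio of -0.22 to the tumor cells, while the next member, Nuf2, was at -1.75. Without Cks2 the remaining 35 members were at 490.0 CPM (470.1 to 510.5) in neutrophils, 577 (557 to 598) in macrophages, 744 (724 to 765) in fibroblasts, 1841 (1722 to 1966) in NK cells, 2222 (2214 to 2231) in tumor cells and 3231 (3101 to 3366) in T cells. MSA-2 macrophages were therefore below the neutrophils with Cks2 (log2 ratio to neutrophils -0.14) and above them without it (0.24). The untreated neutrophil gate held 20 member UMIs in 20 cells and gave no usable background: of 14 members with enough UMIs, 7 were 1.5-fold higher in MSA-2, against 41.6% of 5594 genes, and 5 lower, against 39.6%.

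The 36 members are described next by role. Cyclins and CDK1 comprise the cyclins Ccnb1, Ccnb2 and Ccna2, the kinase Cdk1 and its subunit Cks2, together at 533 CPM in untreated and 550.1 in MSA-2 tumor cells. Their log2 ratio of 0.05 changed sign with the cells counted, at -0.03 with the panel cells added. Another scaling of the totals moved every tumor ratio by -0.08, which also turned the signs of the cyclin, kinetochore and cytokinesis sums. Cks2 was the most abundant of all 36 members, at 261 and 264 CPM. Cdk1 followed in this group, at 134 and 149 (log2 ratio 0.15). Ccna2, the cyclin of S phase and G2, had the lowest log2 ratio of the 36 members in tumor cells, -0.34 (-0.40 to -0.27), from 40.1 to 31.7 CPM, and -0.39 with the panel cells added. Ccnb2 was at -0.06 and Ccnb1 at 0.26. In T cells the 5 genes had log2 ratios from 0.40 (Cks2) to 0.81 (Ccnb2). In macrophages Ccnb2 was at -1.18 (-1.63 to -0.75) and Ccna2 at -0.62, and in fibroblasts Ccnb2 was at -1.30 (-1.75 to -0.84), the lowest of the fibroblast members.

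The ubiquitin ligase route holds Cdc20, which activates the anaphase-promoting complex, Ube2c, its ubiquitin-conjugating enzyme, and Cdca3, an adaptor of another ubiquitin ligase. Ube2c was at 196 CPM in untreated and 241 in MSA-2 tumor cells (log2 ratio 0.30) and at 166 and 343 in T cells (1.04, 0.83 to 1.25). Cdc20 had a log2 ratio of 0.26 in tumor cells and 1.31 (0.87 to 1.74) in T cells. Cdca3 differed from both, at -0.22 in tumor cells and -0.34 with the panel cells added. It was at -1.03 in macrophages, at -1.06 in fibroblasts and, in T cells, at 0.40.

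The mitotic kinases were the polo-like kinase Plk1, Aurka of the spindle poles, and Bub1, Bub1b and Ttk of the spindle checkpoint. Their level was low in tumor cells, with 120.3 CPM in the untreated library and 159 with MSA-2, but their log2 ratio was among the higher ones (0.40, 0.37 to 0.43), and 0.26 with the panel cells added. Ttk was at 0.70 (0.58 to 0.82) and Aurka at 0.66 (0.58 to 0.73). Plk1 was at 0.28, Bub1 at 0.48 and Bub1b at 0.19. In T cells Ttk had the highest log2 ratio of all members, 1.52 (0.60 to 2.39), on 37 untreated and 17 MSA-2 UMIs. Plk1 was at 1.31, Bub1 at 1.25, Aurka at 0.73 and Bub1b at 0.45 there.

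The chromosomal passenger complex, which corrects faulty attachments of chromosomes, was represented by its kinase Aurkb and the subunits Birc5 (survivin) and Cdca8 (borealin). The 3 genes together were at 321 and 343 CPM in tumor cells, a log2 ratio of 0.10 that was -0.03 with the panel cells added, and at 247 and 453 in T cells (0.87, 0.69 to 1.05). Cdca8 was at -0.05 in tumor cells and at 1.06 in T cells. Aurkb was at 0.42 and 0.63, and Birc5 at 0.12 and 0.79. In macrophages all 3 were lower in the MSA-2 library, between -0.86 and -0.77.

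The kinetochore and centromere genes were the centromeric histone Cenpa, the motor Cenpe, the kinetochore protein Cenpf, and Ndc80 and Nuf2 of the microtubule-binding complex. Their sum hardly differed in tumor cells, with 256 and 263 CPM (log2 ratio 0.04, and -0.08 with the panel cells added). Cenpa was at 105 and 96.5 in tumor cells (-0.12). In untreated T cells it was the second most abundant member, at 206 CPM, and it was at 224 in MSA-2 T cells (0.12, -0.13 to 0.36), 1 of the lowest log2 ratios there. Cenpf was at 1.19 (0.86 to 1.51) in T cells against 0.16 in tumor cells. In macrophages Cenpa was at 63.9 and 27.3 CPM (-1.23, -1.49 to -0.98) and in fibroblasts at 77.6 and 31.6 (-1.30, -1.63 to -0.96). The group had the lowest log2 ratio of the 8 groups in both cell types, -0.89 in macrophages and -0.92 in fibroblasts.

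The spindle and motor group was the largest, with 9 genes: the motors Kif2c and Kif11, and Tpx2, Hmmr, Aspm, Nusap1, Tacc3, Dlgap5 and Gtse1, which bind or organise spindle microtubules. In tumor cells it was at 246 and 327 CPM (log2 ratio 0.41, 0.38 to 0.43) and at 0.24 with the panel cells added. Gtse1 had the highest log2 ratio of the 36 members in tumor cells, 0.86 (0.72 to 1.003), at 6.22 and 11.3 CPM. Tpx2, which activates Aurka at the spindle, was at 0.65 (0.61 to 0.70) and Dlgap5 at 0.64 (0.55 to 0.72). In T cells the group had the highest log2 ratio of the 8 groups, 1.09 (0.93 to 1.25). Hmmr was at 1.41 there, Nusap1 at 1.39 and Tpx2 at 1.27. Tpx2 was also the only member with enough UMIs past 1.5-fold in NK cells, at 0.70 (-0.03 to 1.42). In macrophages Hmmr had the lowest log2 ratio of all members, -1.29 (-1.94 to -0.69). Gtse1 had the only positive log2 ratio among macrophages, 1.24 (0.47 to 1.997), on 41 and 25 UMIs, and its share of macrophages with a UMI after thinning, 0.273% and 0.538%, compared with 0.288% of MSA-2 neutrophils.

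Cytokinesis was represented by the motors Kif20b and Kif23, the ring protein Anln and Ect2, which is needed for the ring to form. Their sum was at 123 and 127 CPM in tumor cells, a log2 ratio of 0.05 that was -0.06 with the panel cells added. Anln marked the cell types apart: it was at 57.6 and 56.6 CPM in tumor cells and at 19.5 and 19.6 in T cells, where it had the lowest log2 ratio, 0.01 (-0.92 to 0.83). Ect2 was at -0.15 in tumor cells, 0.75 in T cells and -1.26 in macrophages. Kif23 was at 0.20 in tumor cells and 0.54 in T cells, and Kif20b at 0.19 and 0.85.

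The last group held Mki67, which coats mitotic chromosomes, and Top2a, the topoisomerase that untangles them. Top2a was at 191 and 252 CPM in tumor cells (log2 ratio 0.39, 0.37 to 0.42) and at 218 and 329 in T cells (0.59, 0.38 to 0.80). In NK cells it was at 149 and 222 (0.58, 0.19 to 0.96), the highest level of any NK member in the MSA-2 library. Mki67 was at 54.3 and 76.1 CPM in tumor cells (0.49) and at 119.6 and 194 in T cells (0.70, 0.42 to 0.97), more than in tumor cells in both libraries. It was at 57.2 and 32.7 in macrophages, where the untreated level was slightly above that of tumor cells (log2 ratio to tumor cells 0.07, -0.02 to 0.17).

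**Figure D3:**
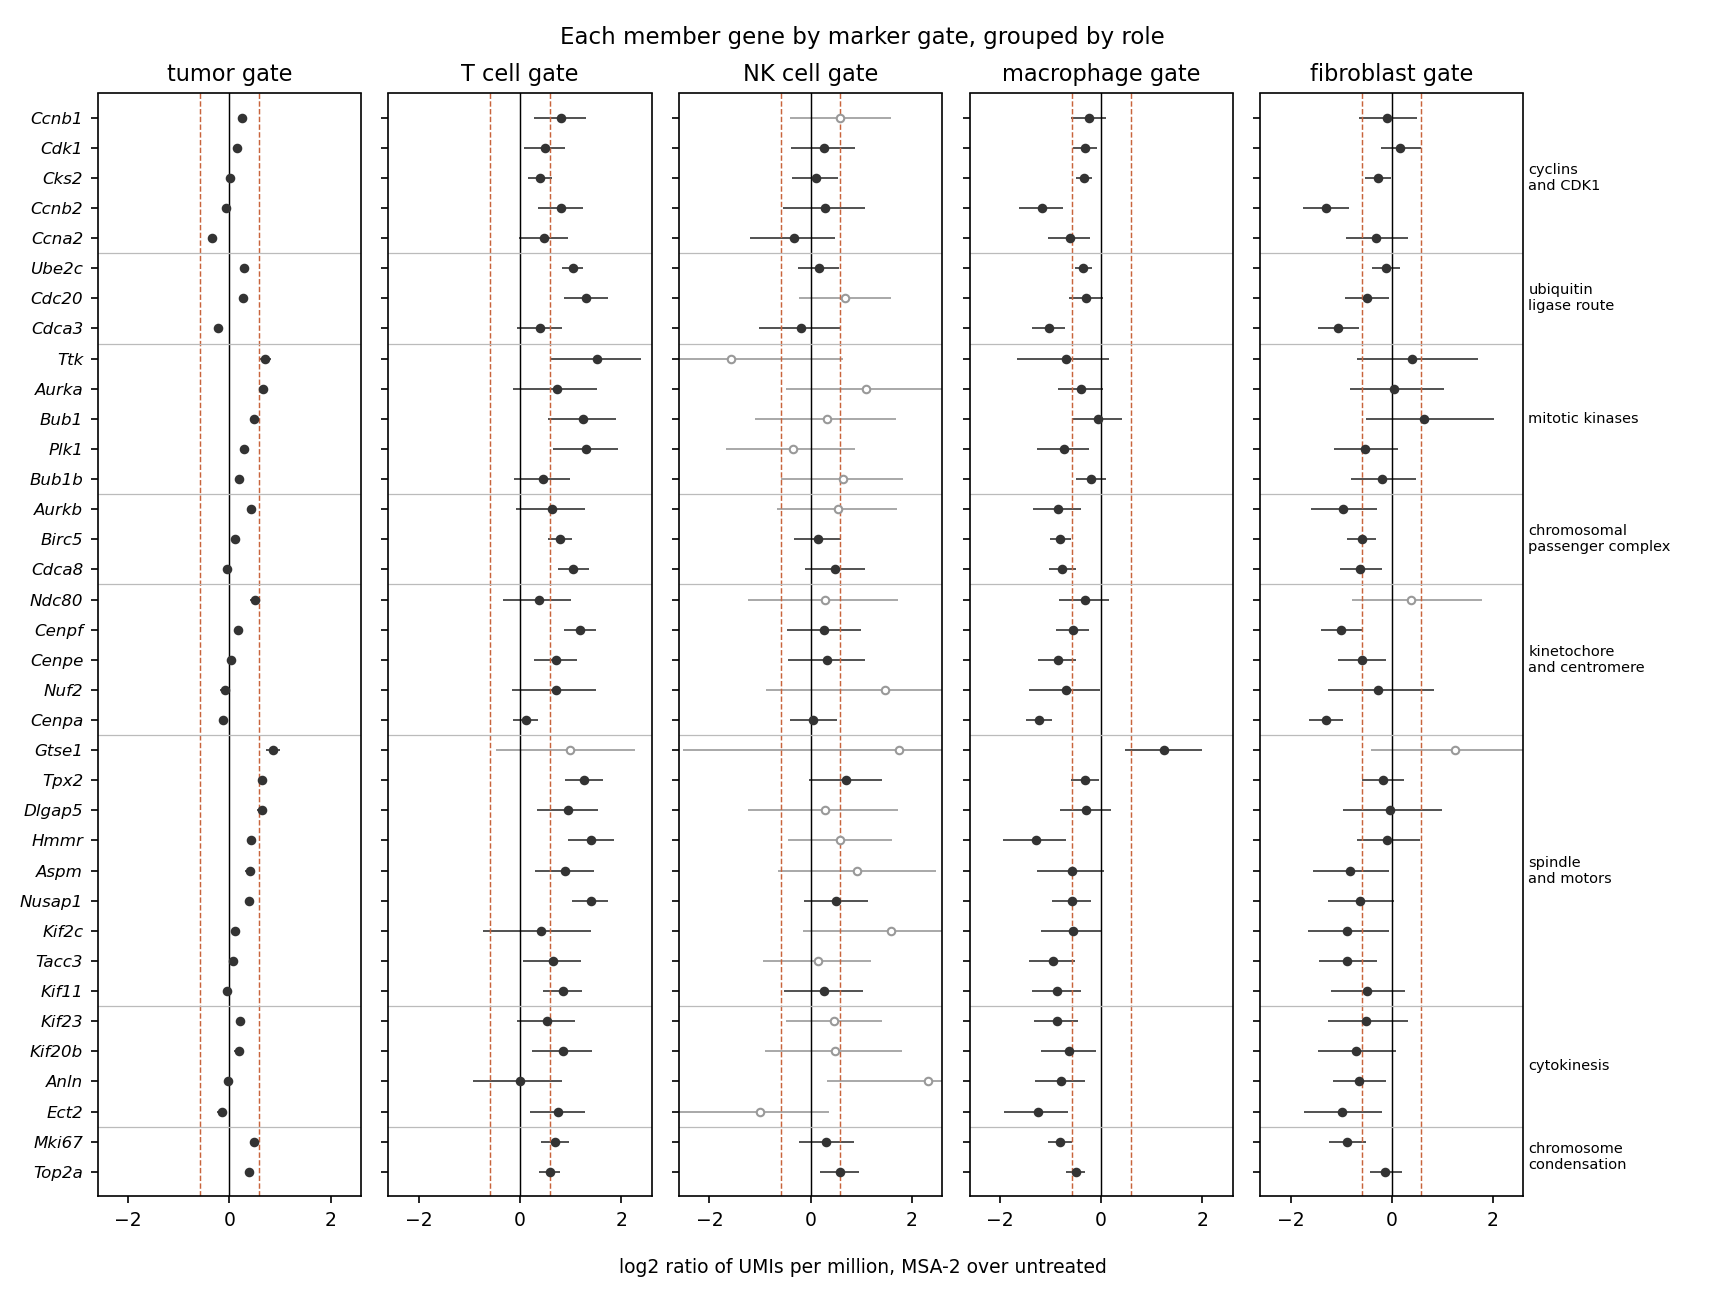
Log2 ratio of CPM, MSA-2 over untreated (horizontal axis), for each of the 36 members (vertical axis, grouped by role) in 5 gates, with exact conditional 95% intervals; open grey circles have under 50 UMIs in both libraries together, some intervals run past the axis, and dashed lines mark 1.5-fold. In tumor cells the points lie between -0.34 and 0.86, in T cells all lie above 0, and in macrophages all but Gtse1 lie below 0.

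Where the untreated and MSA-2 UMIs of a gene came to 50 or more, it was counted, and 5 of the 36 members (13.9%) were at least 1.5-fold higher in MSA-2 tumor cells (Gtse1, Ttk, Aurka, Tpx2 and Dlgap5), against 18.7% of 15373 genes, and 0 were 1.5-fold lower, against 12.7%. With 10 CPM added to both levels 0 were higher, against 3.95% of all genes, and another scaling left 2, against 16.0%. The count was no larger than that of genes at large. Of the 36 log2 ratios 27 were positive, with a median of 0.20 beside 0.07 over all genes. How many of all genes had a positive log2 ratio is not given, in this or any other gate. With the panel cells added, 1 member (Gtse1) was past 1.5-fold, in the higher direction, against 17.8% of 16168 genes higher. Of the 36 log2 ratios 23 were then positive and the median was 0.08. The matching values over all genes are not given for these cells. In T cells 35 members had enough UMIs and Gtse1 did not. Of these, 25 (71.4%) were at least 1.5-fold higher in the MSA-2 library, against 10.9% of 8241 genes, and 0 were 1.5-fold lower, against 21.0%. The 25 were Top2a, Aurkb, Tacc3, Mki67, Nuf2, Cenpe, Aurka, Ect2, Birc5, Ccnb1, Ccnb2, Kif11, Kif20b, Aspm, Dlgap5, Ube2c, Cdca8, Cenpf, Bub1, Tpx2, Plk1, Cdc20, Nusap1, Hmmr and Ttk. All 35 log2 ratios were positive, from 0.01 to 1.52, with a median of 0.75 beside -0.15 over all genes. The other 10, all within 1.5-fold, were Anln, Cenpa, Ndc80, Cks2, Cdca3, Kif2c, Bub1b, Ccna2, Cdk1 and Kif23.

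In NK cells 16 members had at least 50 UMIs. 1 of them (6.25%), Tpx2, was 1.5-fold higher, against 10.4% of 3808 genes, and 0 were lower, against 17.3%; the median log2 ratio was 0.27 beside -0.11 over all genes. With 10 UMIs or more as the limit, 8 of 34 NK cell members were higher, against 17.0% of all genes, and 2 lower, against 21.8%. In macrophages all 36 had enough UMIs. 20 (55.6%) were at least 1.5-fold lower in the MSA-2 library, against 16.3% of 11383 genes, and 1 (2.78%), Gtse1, was higher, against 12.3%. With 10 CPM added to both levels, which weighs down genes of low level, 6 were lower, against 4.87% of all genes, and 0 higher, against 6.72%. The 20 were Hmmr, Ect2, Cenpa, Ccnb2, Cdca3, Tacc3, Kif23, Kif11, Cenpe, Aurkb, Mki67, Birc5, Anln, Cdca8, Plk1, Ttk, Nuf2, Kif20b, Ccna2 and Aspm, and the median over all members was -0.62 beside -0.14 over all genes. The most abundant macrophage members, Cks2, Top2a and Ube2c, were within 1.5-fold, at -0.34, -0.50 and -0.35. In fibroblasts 34 members had enough UMIs, and Ndc80 and Gtse1 did not. 16 (47.1%) were 1.5-fold lower, against 21.5% of 9371 genes, and 1 (2.94%), Bub1, was higher, on 7 and 50 UMIs, against 13.7%. The 16 were Ccnb2, Cenpa, Cdca3, Cenpf, Ect2, Aurkb, Mki67, Kif2c, Tacc3, Aspm, Kif20b, Anln, Cdca8, Nusap1, Birc5 and Cenpe, and the median was -0.51 beside -0.17 over all genes. Another scaling of the totals shifted the fibroblast ratios by 0.26 on the log2 scale and left 9 members 1.5-fold lower, against 11.4% of all genes, and 2 higher, against 21.3%. With 10 CPM added to both levels 5 fibroblast members were lower, against 11.3% of all genes, and 0 higher, against 8.27%.

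The share of cells that carried several members was read at an equal depth of 1500 UMIs, drawn from each cell without replacement, and shallower cells were left out. A cell was counted when at least 4 of the 36 genes had a UMI. In tumor cells that share was 1077 of 4910 cells (21.9%, 20.8% to 23.1%) in the untreated library and 1575 of 5276 (29.9%, 28.6% to 31.1%) with MSA-2. In MSA-2 neutrophils it was 32 of 1736 (1.84%, 1.26% to 2.59%), taken as background; 578 shallower neutrophils were left out, against 80 untreated and 58 MSA-2 tumor cells. T cells had 126 of 1116 (11.3%, 9.49% to 13.3%) and 41 of 135 (30.4%, 22.8% to 38.9%), with 40 and 6 left out. Macrophages had 246 of 3301 (7.45%, 6.58% to 8.40%) and 30 of 929 (3.23%, 2.19% to 4.58%), with 103 and 37 left out, and the MSA-2 interval overlapped that of the neutrophils. At 5 or more members MSA-2 macrophages stood at 1.83% against 0.288% of MSA-2 neutrophils, and at 6 or more at 1.40% against 0.173%. NK cells, at 19 of 137 (13.9%, 8.56% to 20.8%) and 12 of 69 (17.4%, 9.32% to 28.4%), and fibroblasts, at 12 of 120 (10.0%, 5.27% to 16.8%) and 29 of 469 (6.18%, 4.18% to 8.76%), had intervals that overlapped between the libraries. No more than 8 fibroblasts and 0 NK cells were left out. Without thinning the shares were 80.4% and 88.4% in tumor cells, 25.3% and 45.4% in T cells, 27.7% and 53.6% in NK cells, 30.2% and 25.7% in macrophages, 46.7% and 57.2% in fibroblasts, and 3.80% in MSA-2 neutrophils. Near the limit, 275 untreated and 512 MSA-2 tumor cells had exactly 4 members and 385 and 597 had 3. In T cells 24 and 3 had 4, and 52 and 9 had 3. In macrophages 69 and 13 had 4, and 135 and 31 had 3. NK cells had 4 and 3 at the limit and 4 and 6 below it, and fibroblasts 1 and 9 at the limit and 4 and 23 below it.

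**Figure D4:**
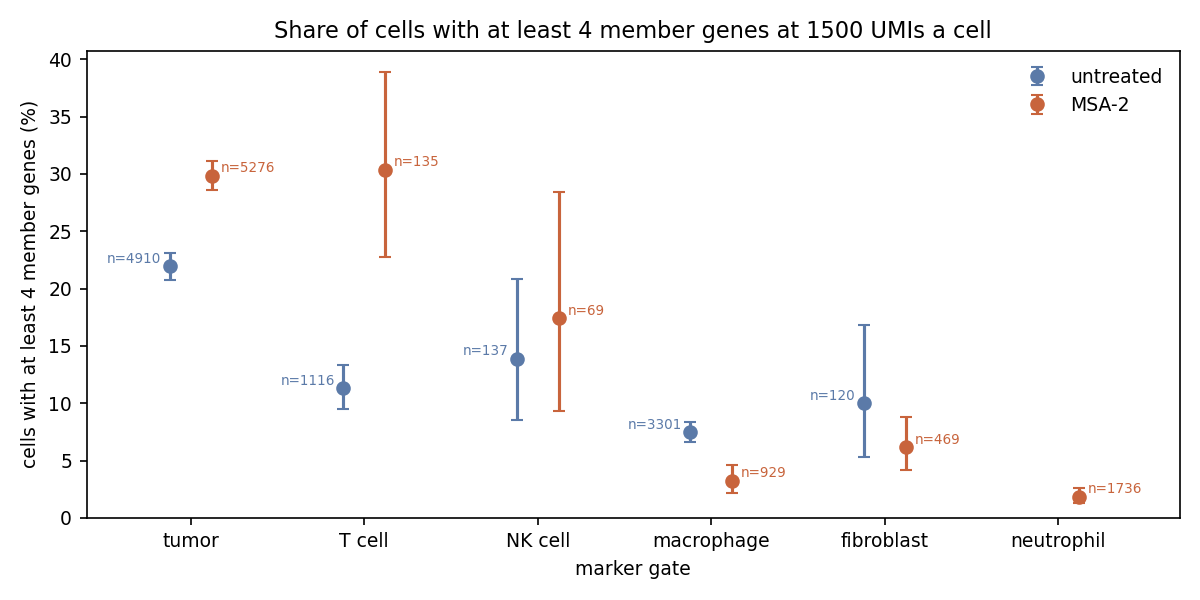
Share of cells with at least 4 of the 36 member genes (vertical axis, percent) in each marker gate after thinning to 1500 UMIs, untreated (blue) and MSA-2 (orange), with exact binomial 95% intervals and the number of cells; the untreated neutrophils (3 deep enough) are left out. T cells stand at 11.3% and 30.4% and macrophages at 7.45% and 3.23%, beside 1.84% of MSA-2 neutrophils.

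How the members' UMIs were spread over cells differed between the libraries. In tumor cells 66.9% of untreated and 79.2% of MSA-2 cells had at least 1 member, but 1.202% and 0.815% had at least 12, so that the curves crossed between 7 members (8.84% and 9.14%) and 8 (6.48% and 6.12%). The 10% of tumor cells with the most member UMIs held 44.7% of them in the untreated library and 35.0% with MSA-2. The counted T cells held 184 CPM of the 5 tumor panel genes against 204 in the other T cells of the untreated library, and 152 against 229.8 with MSA-2. They were also deeper, with medians of 6809.5 against 3153 UMIs and 7998 against 3338.5, and per cell they held more panel UMIs, 1.36 against 0.718 and 1.22 against 0.926. Counted macrophages held 162 and 262 CPM of the panel genes against 163 and 236, or 1.37 and 1.87 UMIs a cell against 0.955 and 1.29. Counted fibroblasts held 142 and 333 CPM against 150.1 and 228, or 2.17 and 7.34 UMIs a cell against 1.82 and 3.23, and counted NK cells 153 and 142 CPM against 133 and 180.1, or 1.32 and 1.42 UMIs a cell against 0.729 and 1.16. Among MSA-2 neutrophils the 32 counted cells held 768 CPM of the panel genes against 299.6 in the rest. Counted T cells held less of their own markers, 3983 against 5125 CPM untreated and 3334 against 3608 with MSA-2. So did counted NK cells (1892 against 2081, 1504 against 1831) and fibroblasts (43699 against 54060, 25996 against 31942). Counted macrophages were at 17130 against 18456 untreated and 15963 against 15366 with MSA-2. The reason was not tested.

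**Figure D5:**
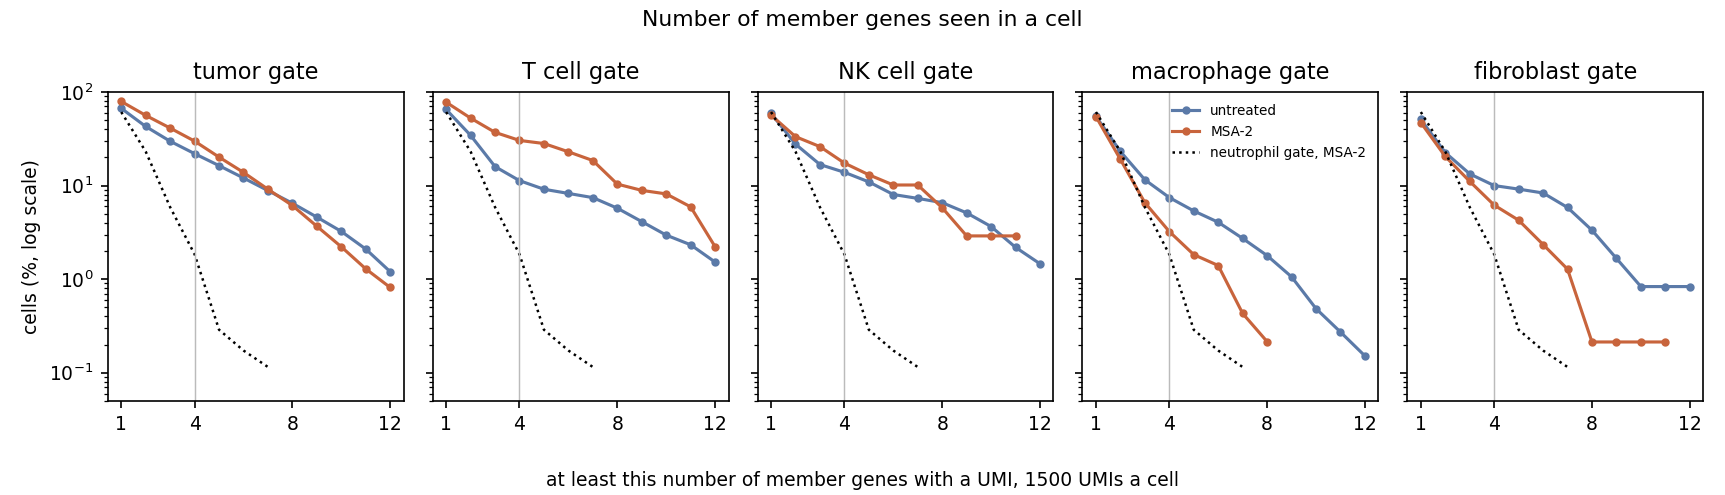
Percentage of cells (vertical axis, log scale) with at least the given number of member genes with a UMI (horizontal axis) after thinning to 1500 UMIs, untreated (blue), MSA-2 (orange) and MSA-2 neutrophils (dotted), in 5 gates; the grey line marks 4 members and points at 0 are not drawn. The tumor curves cross between 7 and 8 members, and at 4 members MSA-2 macrophages stand at 3.23% and MSA-2 neutrophils at 1.84%.

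For single members the share of cells with a UMI at 1500 UMIs was higher with MSA-2 for 33 of the 36 in tumor cells and for 34 in T cells, where Cenpa (18.2% and 17.0%) and Ect2 (2.599% and 2.22%) were lower. In macrophages it was lower for 29 and higher for 7, which were Ccnb1, Aspm, Cdk1, Bub1, Bub1b, Kif23 and Gtse1, among them Cdk1 at 4.94% and 5.06%. It was higher for 21 and lower for 13 in NK cells, and higher for 13 and lower for 23 in fibroblasts. In ungated cells it was higher for 16 and lower for 20, unlike in the tumor gate. How many of all genes had a higher share was not computed. Top2a was seen in 16.1% of untreated and 23.6% of MSA-2 tumor cells, in 14.7% and 25.2% of T cells and in 8.42% and 7.104% of macrophages, against 7.43% of MSA-2 neutrophils. Mki67 was seen in 6.17% and 8.97% of tumor cells, in 6.63% and 15.6% of T cells and in 5.39% and 3.44% of macrophages, against 2.71% of MSA-2 neutrophils. The MSA-2 macrophage share of Top2a was below that of the neutrophils and cannot be told apart from background. Cks2 told least: it was seen in 24.9% and 27.1% of tumor cells and in 24.6% of MSA-2 neutrophils.

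T cells were split by their coreceptor transcripts. Those with Cd8a or Cd8b1 and no Cd4 UMI numbered 733 untreated and 89 MSA-2 cells, and their member sum was 1976 (1926 to 2027) and 3929 (3761 to 4101) CPM. Those with Cd4 alone numbered 68 and 9, with 3462 (3254 to 3681) and 2912 (2433 to 3458). Among cells with neither, 348 and 43, the sums were 1834 (1754 to 1917) and 1942 (1719 to 2186). The share with at least 4 members was 78 of 720 (10.8%) and 34 of 87 (39.1%) in cells with CD8 transcripts, 14 of 66 (21.2%) and 3 of 9 (33.3%) in those with Cd4, and 32 of 323 (9.91%) and 4 of 39 (10.3%) in those with neither. For Cd4 cells the sum was thus lower and the share higher with MSA-2, on 9 cells. Another 7 untreated cells and 0 MSA-2 cells held both coreceptors, at 3653 CPM. Differences between these kinds were not tested, and the split depends on the depth of a cell. The 9 T cell markers, all detected, had a lower sum in the MSA-2 T cell gate, 4893 and 3482 CPM, led by Cd3g (1249.9 and 791), but Cd8b1 was higher (273 and 337) and Cd8a level (284 and 282). Markers of other cells moved with the libraries as well. In the T cell gate the macrophage list was at 456 and 99.3 CPM, with C1qa and C1qb leading; Trem2 and Mrc1 were at 0 in MSA-2. Neutrophil markers were at 50.4 and 453 there, led by Il1r2 and in MSA-2 by S100a9 and with Retnlg at 0 in the untreated library, and the fibroblast list, with all 8 genes detected, at 303 and 926. In the macrophage gate the neutrophil list was at 122 and 751, led by Il1r2 and then S100a9, with Cxcr2 at 0 in the untreated library, the fibroblast list, all 8 genes detected, at 278 and 516, led by Col3a1 and then Dcn, and the gate's own 8 markers at 18293 and 15341, led by C1qa. The tumor list was at 249 and 375 there and the T cell list, with Cd8a at 0 in MSA-2, at 22.7 and 2.51. In the fibroblast gate the 8 own markers were at 52791 and 31376, led by Col1a1 and Col3a1, and the neutrophil list at 26.1 and 596, with S100a8, Retnlg and Cxcr2 at 0 in the untreated library. The macrophage list, all 8 genes detected and led by C1qa, was at 414 and 134 there, and the tumor list at 728 and 608. In the tumor gate the neutrophil list, all 8 genes detected, was at 7.82 and 440.1, led by Il1r2 and then S100a9, and the macrophage list, led by C1qa, at 329 and 98.9. In the NK cell gate the neutrophil list was at 7.39 and 512, led by Hdc and then S100a9, with S100a8, S100a9, Retnlg and Cxcr2 at 0 in the untreated library and Csf3r and Cxcr2 at 0 with MSA-2. The macrophage list was at 366 and 113 there, led by C1qa, and the fibroblast list at 285 and 728, led by Col3a1, with Pdgfrb at 0 in the untreated library. Their part in the member ratios was not tested.

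Other genes of division were read for comparison. The 55 other mitosis genes had log2 ratios of their sum of 0.16 in tumor cells, 0.57 in T cells, 0.25 in NK cells, -0.50 in macrophages and -0.26 in fibroblasts. In T cells 27 of the 47 with enough UMIs were at least 1.5-fold higher (57.4%, against 10.9% of all genes) and 1, Lin54, lower, and in macrophages 30 of 55 were lower (54.5%, against 16.3%) and 0 higher. In fibroblasts 7 of 42 were lower (16.7%, against 21.5% of all genes) and 3 higher, beside 47.1% of members lower. In NK cells 2 of 13 were higher (15.4%, against 10.4%) and 1 lower (7.69%, against 17.3%). In tumor cells 8 of 55 were higher (14.5%, against 18.7%) and 0 lower, and the most abundant were Cks1b (232 and 211 CPM), Anapc11 (203 and 198) and Bub3 (115 and 103). Cit, a kinase of cytokinesis, and Arhgap11a had the highest log2 ratios there, 1.10 and 0.93, and Melk and Smc2 the lowest, both -0.34. The 27 genes of DNA replication and S phase had log2 ratios of 0.20 in tumor cells, 0.40 in T cells, -0.10 in NK cells, -0.18 in macrophages and 0.05 in fibroblasts. In tumor cells Pcna (105 and 126 CPM), Mcm6 (69.3 and 80.6) and Rrm2 (69.3 and 69.5) led, with Hells and Cdc45 at the highest log2 ratios, 0.62 and 0.57, and Prim1 and Ccne1 at the lowest, -0.19 and -0.15. In T cells 7 of 25 S-phase genes were 1.5-fold higher (28%, against 10.9% of all genes) and 0 lower, and Cdc6 and Ccne1 had the highest log2 ratios, 1.89 and 1.62. In macrophages 7 of 27 were lower (25.9%, against 16.3%) and 2, Ccne1 and Ccne2, higher. In NK cells 3 of 12 were lower (25%, against 17.3%) and 0 higher, and in fibroblasts 3 of 25 were lower (12%, against 21.5%) and 3 higher, against 13.7%.

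The members were also set against the S-phase genes within each library. In tumor cells there were 2.03 member UMIs for each S-phase UMI in the untreated (2.02 to 2.05) and 2.01 (2.001 to 2.03) in the MSA-2 library. T cells had 1.81 (1.75 to 1.87) and 2.31 (2.15 to 2.48), and NK cells 1.32 (1.22 to 1.44) and 1.74 (1.57 to 1.94). Macrophages had 1.46 (1.43 to 1.49) and 1.09 (1.04 to 1.14), and fibroblasts 2.49 (2.28 to 2.73) and 1.72 (1.65 to 1.79). MSA-2 neutrophils, the background outside the cycle, had 2.38 (2.24 to 2.54), above tumor cells and near MSA-2 T cells. This order rested on Cks2, which held 1061 of the 3347 neutrophil member UMIs. Without Cks2, MSA-2 neutrophils held 2286 member UMIs beside 1405 S-phase UMIs. MSA-2 tumor cells then held 256824 beside 142674 and MSA-2 T cells 2311 beside 1076, so that neutrophils were below both. The ratio thus depends on Cks2 and alone is no reading of the cell cycle.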

How the data were processed

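UMI counts of 2 libraries were deposited as matrices that the authors made with Cell Ranger (7.0.1 per the file headers, 7.0.0 per the submitters' notes, which also name Seurat 4.3.0) on build mm10. The paper names later versions of both programs. The deposited counts are whole numbers, 1 tag a transcript from its 3′ end, so levels carry no length term. The matrices held 29003 barcodes in both libraries together, with a median of 2858 genes each; 53 barcode sequences occurred in both libraries, 39 of them among kept cells, and were treated as separate cells. The labels name the cells tumor cells and the first library untreated, while the design text gives it the vehicle; the paper describes sorted immune cells; the data held tumor and immune cells in both libraries.

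Barcodes passed with 500 genes or more and a mitochondrial share of UMIs up to 20% (14039 and 13963). Scrublet, run through scanpy 1.11.5, called 705 (5.02%) and 570 (4.08%) doublets at an assumed rate of 0.8% per 1000 barcodes, and these were left out. Kept cells had a median of 8298.5 and 9271 UMIs. A cell joined a gate when its markers reached a summed rate per 10000 UMIs and a number of detected genes: tumor 12 and 2 of 8, T cell 8 and 3 of 9, NK cell 8 and 3 of 6, macrophage 50 and 3 of 8, fibroblast 150 and 5 of 8, neutrophil 150 and 4 of 8, endothelial 12 and 3 of 5, B and plasma cell 12 and 2 of 4, dendritic cell 8 and 2 of 6. The last 3 gates held 20, 2 and 126 untreated and 33, 1 and 13 MSA-2 cells and are not described. The NK cell gate also asked that a cell not meet the T cell rule, so a cell of the T cell gate could carry NK cell markers. Cells that then met more than 1 gate joined none. Klra4 was dropped from the NK cell rule because tumor cells expressed it.

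UMIs of a gate were summed over its cells and divided by its total, in counts per 1000000 UMIs (CPM). Intervals are exact Poisson, conditional binomial or binomial 95% intervals that treat molecules or cells as independent. With 1 library per condition nothing was tested between conditions. Fold counts took genes whose UMIs in the gate came to 50 or more over the libraries, and a fold of 1.5. The interval script was tested on Poisson counts simulated from the macrophage gate, which is the model that the intervals assume. There 200 of 200 directions were recovered and 95.55% of intervals held the true value. This checks the calculation only and says nothing on spread between cells, animals or libraries. The members and lists were chosen with earlier results of these data known. The tumor panel, the tumor gate widened by cells with at least 3 of its 5 genes, the comparison with neutrophils without Cks2, and the fold counts under another scaling or the widened gate were added after the data had been seen. All members are named; other genes are named when they are extremes or the most abundant of a list, or markers. Python 3.11.15, numpy 2.4.6, scipy 1.17.1, pandas 2.3.3 and matplotlib 3.10.9 were used, and edgeR 4.0.16 in R 4.3.3 for TMM scaling only.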

Additional observations from a re-analysis of the deposited data

Results flagged for a closer look

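The summed level of the members differed in direction between gates, and none of these differences was tested. Set as MSA-2 over untreated, the log2 ratio was higher in the tumor gate than in the macrophage gate by 0.78 and than in the fibroblast gate by 0.67. The T cell gate was above the macrophage gate by 1.35 and above the fibroblast gate by 1.24, and the NK cell gate by 0.90 and 0.78. Cells that met more than 1 gate, 198 untreated and 291 MSA-2, were left out of all gates; their member sum was 774 and 1106 CPM. The called doublets, 705 and 570, had 1948 and 2219 CPM.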

How the results depend on the processing

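Of 103 values under other settings, 69 stayed the same, 33 moved and 1 reversed. The cause was not tested. The sums by role, of which several changed sign in tumor cells as given above, are not in this count. A log2 ratio counted as reversed when its sign changed and the interval of the reported value excluded 0, and as moved when it left that interval; a count moved when it changed by over 1.5 times. Leaving out cells with a tracer UMI reversed the fibroblast sum to a log2 ratio of 0.48 and moved the T cell sum to 0.90. The tumor sum was 0.0784 with 1 more marker, 0.0612 in the wider tumor gate, 0.10 under TMM scaling, 0.23 with equal weight per cell and 0.21 without Cks2. The macrophage sum was -0.48 with equal weight per cell. The fibroblast sum was -0.82 with doublets kept, -0.27 with 1 more marker and -0.23 under TMM scaling. Log2 ratios of the share of cells with at least 4 members were 0.14 in tumor cells, 0.85 in T cells and -0.23 in macrophages without thinning, against 0.44, 1.43 and -1.21 with it; -0.60 in macrophages at 3000 UMIs; 0.20 in tumor cells and -1.83 in fibroblasts with at least 6 members; and 0.29 in the wider tumor gate. The fibroblast share was 0.29 without thinning and 0.02 at 3000 UMIs, against -0.69; these signs changed too, but the interval of the reported value spans 0, so they counted as the same. Members 1.5-fold higher in tumor cells went from 5 to 0 with 10 CPM added (3.95% of all genes), 2 under TMM scaling (16.0%) and 1 in the wider gate (17.8%), each of 36 tested. In NK cells 8 of 34 were higher and 2 lower with at least 10 UMIs (17.0% and 21.8% of all genes), 10 of 36 higher and 2 lower with at least 1 UMI in each library (24.9% and 21.3%), and 2 of 16 higher under TMM scaling (10.8%). With 10 CPM added, 0 of 36 were higher and 6 lower in macrophages (6.72% and 4.87%), and 0 of 34 higher and 5 lower in fibroblasts (8.27% and 11.3%). In fibroblasts 2 of 36 were higher with at least 10 UMIs (17.7%), 2 of 36 with at least 1 in each library (14.7%) and 2 of 34 under TMM scaling (21.3%), where 9 were lower (11.4%). No paired analysis was possible because each condition had 1 library, and the shared replicate number 1 joins no animals. The MSA-2 T and NK cell gates held 141 and 69 cells, so their gene ratios rest on few molecules, and the gates were set by markers, some of which differ between the libraries.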

Other observations

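Cells in no gate carried the members at 2925 and 2685 CPM, and at 1500 UMIs a share of 24.6% (untreated) and 22.8% (MSA-2) had at least 4 of them. All 36 members had enough UMIs there, 0 were 1.5-fold higher, against 13.5% of 14457 genes, and 1 was lower, against 10.4%. Barcodes below the cell filter, 347 and 654, held 1580.1 and 1327 CPM.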
